A study of Mus musculus with 4 samples.

Results

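The genes described here are 10 markers of T cell subset and of cytotoxic function, Cd4, Cd8a, Cd8b1, Nkg7, Ccl5, Gzma, Gzmb, Prf1, Ifng and Klrd1, out of 32285 genes in the deposited tables. They were taken by symbol, with earlier results of these data known, and were followed in T cells, other immune cells and tumor cells of each library. T cells were barcodes with at least 2 unique molecular identifiers (UMIs, each counting 1 captured transcript) summed over Cd3d, Cd3e, Cd3g, Trac, Trbc1 and Trbc2, and with at most 2 UMIs of the keratins Krt8 and Krt18. This rule gave 121 T cells among 4404 kept cells. The tumors were grown from DLA cells (Dalton's lymphoma ascites, a transplantable mouse tumor line) injected into the peritoneal cavity of Swiss albino mice. There were 2 libraries from control tumors, labelled untreated (a vehicle is named in the study's supplement), and 2 from tumors of mice given SP11, an inhibitor of the chaperone HSP90, by mouth at 30 mg/kg for 17 days. The control libraries are named Control 1 and Control 2, and the SP11 libraries Treated 1 and Treated 2. The tissue was digested with collagenase and DNase, red cells were lysed, and 3′ libraries were made on the 10x Genomics platform without any sort for immune cells. Sex and age of the mice were not given, DLA is 1 transplanted line, and the labels do not tie the 2 libraries of a group to separate animals, so p-values measure only the spread between libraries. The labels name the cells as lymphoma, whereas 3275 of the 4404 kept cells carried at least 3 UMIs of Krt8 and Krt18, and these keratin-positive cells are called tumor cells here.

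Mature T cells carry a T cell receptor with the Cd3 chains and, as a rule, either Cd4, a coreceptor for antigen shown on MHC class II, or Cd8, a dimer of Cd8a and Cd8b1 that reads MHC class I. Cytotoxic T cells and natural killer (NK) cells kill by releasing granules that hold perforin (Prf1), which opens the target membrane, and granzymes such as Gzma and Gzmb, proteases that enter the target. Nkg7 is a membrane protein of these granules, Ccl5 is a chemokine that is stored as transcript in memory and effector T cells, Ifng encodes interferon gamma, and Klrd1 (CD94) is a lectin receptor that pairs with NKG2 chains on NK cells and some Cd8 T cells.

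In GRCm38, the build that matches the mm10 of the submitters' processing notes, Cd8b1 (chr6:71322788-71337494) and Cd8a (chr6:71373427-71379173) lie on the same strand of chromosome 6, 35932 bases apart. Cd4 (chr6:124864692-124888221) and Klrd1 (chr6:129591782-129598775) are on the same chromosome. All 10 are protein-coding genes.

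RefSeq promoter sequences, from 250 bases before to 50 bases after the start, were matched for 6 of the 10 genes, namely Cd8a, Nkg7, Prf1, Ifng, Gzma and Gzmb. Nkg7 is shown because, of the 10 genes, only it and Ccl5 could be tested in T cells against other immune cells and tumor cells. It passed the filter on low counts through the T cells, where it is high, so the choice is not a result. Gzma and Gzmb are shown because most of their UMIs lay in different cell classes, as described further on. Other immune cells held 30 of 42 Gzma UMIs, and T cells held 18 of 23 Gzmb UMIs. The split was not complete, since T cells of Control 1 held 2 of 2 Gzma and 5 of 6 Gzmb UMIs. The capitals mark matches on either strand to AGGTGTGA, a form of the site bound by T-box factors such as Tbx21 and Eomes, and to TGTGGT, the core of the site bound by Runx factors. Each sequence is written along its gene, in GRCm38.p6.
Nkg7, chr7:43436888-43437187, plus strand: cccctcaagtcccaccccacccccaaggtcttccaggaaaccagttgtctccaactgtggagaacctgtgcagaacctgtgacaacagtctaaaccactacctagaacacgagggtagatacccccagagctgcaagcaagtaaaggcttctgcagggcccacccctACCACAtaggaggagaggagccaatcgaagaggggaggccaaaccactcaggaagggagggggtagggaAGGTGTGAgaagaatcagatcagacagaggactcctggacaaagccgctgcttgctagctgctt
Gzma, chr13:113100932-113101231, minus strand: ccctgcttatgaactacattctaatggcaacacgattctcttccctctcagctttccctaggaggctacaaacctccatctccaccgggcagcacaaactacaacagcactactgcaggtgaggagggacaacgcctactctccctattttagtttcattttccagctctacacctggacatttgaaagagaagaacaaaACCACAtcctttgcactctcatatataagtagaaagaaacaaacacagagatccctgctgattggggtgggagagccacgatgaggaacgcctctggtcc
Gzmb, chr14:56262285-56262584, minus strand: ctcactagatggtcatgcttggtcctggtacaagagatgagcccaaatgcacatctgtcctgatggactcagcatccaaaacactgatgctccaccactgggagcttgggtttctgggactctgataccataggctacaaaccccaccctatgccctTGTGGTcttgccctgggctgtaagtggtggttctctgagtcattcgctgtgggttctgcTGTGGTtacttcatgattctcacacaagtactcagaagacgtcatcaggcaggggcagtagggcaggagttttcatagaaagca
The T-box letters occurred once in Nkg7 and in none of the other 5 promoters. They occurred in 1.28% of 32851 promoters of the same length. The Runx letters occurred in Nkg7 (1 match), Gzma (1), Prf1 (1) and Gzmb (2), and not in Cd8a or Ifng, against 16.8% of all promoters. The letters were chosen after these sequences had been read, and a match describes the sequence only.

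Control 1 and Control 2 held 916 and 566 kept cells with 9739676 and 9574906 UMIs, and Treated 1 and Treated 2 held 1831 and 1091 kept cells with 12999822 and 13024964 UMIs. T cells numbered 10, 1, 22 and 88 in that order of the libraries, which is kept wherever 4 values are given. Treated 2 alone thus gave 88 of the 121, and Control 2 gave a lone cell of 933 UMIs. T cells were small, with median UMIs of 626, 933, 720.5 and 865 against 10885, 17055, 8794 and 19651 in tumor cells. A Cd3 UMI was present in 104 of the 121. At the edge of the rule, 26 T cells had exactly 2 UMIs of its 6 genes, and 31 keratin-low barcodes outside it had 1. A further 27 barcodes met the T cell count but carried too much keratin and were left with the tumor cells. Of the T cell barcodes, 36 were also kept in another library, 33 of them in Treated 2, and none was a T cell in both. In the other library, 28 of those 33 were tumor cells and 5 were other immune cells. Among all kept cells, 1315 of 4404 had a barcode that was also kept in another library, 346 of them among the 1091 of Treated 2. Without shared barcodes the T cells numbered 9, 1, 20 and 55. T cells with at least 2 UMIs of markers of another immune type numbered 0, 0, 8 and 12, mostly with B cell or myeloid genes. The 6 dendritic markers were at 0 in T cells of every library. Of the 8 NK markers, 7 were at 0 in all libraries and the eighth gave 1 UMI in Treated 2. Hemoglobin transcripts, from red cells, gave 1260.2, 0, 112527 and 53498 CPM (counts-per-million, here of all UMIs of the T cells). Their part in the differences between groups was not tested.

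T cells made 1.09% (exact Clopper-Pearson 95% binomial interval 0.525 to 2.00), 0.177% (0.00447 to 0.980), 1.20% (0.754 to 1.81) and 8.07% (6.52 to 9.84) of the kept cells of the 4 libraries. Here and throughout, intervals cover counting error only. Treated 1 lay inside the interval of Control 1, and only Treated 2 stood apart. The means were 0.634% ± 0.647 (SD, n = 2) in controls and 4.63% ± 4.85 (SD, n = 2) with SP11. The two-sided exact permutation test gave p = 0.333, the smallest that 2 against 2 libraries allows, and an adjusted p of 0.667 over 6 such tests. Without Treated 2 the difference fell from 4.00 to 0.567 percentage points. As a share of T cells plus other immune cells, the values were 21.3%, 5.26%, 5.07% and 20.1%, so that each group had a high and a low library. The mean difference was -0.690 points (exact permutation p = 0.667).

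Most T cells showed no coreceptor transcript. Cd4 gave 0, 0, 1 and 7 UMIs in the T cells of the 4 libraries. Cd8a gave 1, 0, 0 and 5, and Cd8b1 gave 2, 0, 3 and 12. No Cd4 UMI was thus seen in the 11 control T cells, and the 10 of Control 1 allow a share of cells with a UMI of up to 30.0%, which does not limit the share that express it, while in Treated 2 Cd4 was found in 7.95% (3.26 to 15.7) of T cells. By cell, 8 of the 121 had Cd4 alone, 17 had Cd8a or Cd8b1 alone, none had both, and 96 had neither. The Cd4 cells numbered 0, 0, 1 and 7 and the Cd8 cells 3, 0, 1 and 13. Among T cells with either, the Cd8 share was 100%, not defined, 1 of 2 cells and 65.0%, resting on 3, 0, 2 and 20 cells. The exact permutation test had 1 control library against 2 and gave p = 0.667, the smallest it can give there. It therefore could not decide whether the groups differed. Left without shared barcodes, Treated 2 had 5 Cd4 and 7 Cd8 T cells.

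Pooled over the 4 libraries, a larger share of T cells than of other immune or tumor cells had a coreceptor UMI. By library, the share of T cells with Cd8a or Cd8b1 was 30.0%, 0%, 4.55% and 14.8%, so the pooled values rest mainly on Treated 2. Cd8a or Cd8b1 was found in 17 of 121 T cells (interval 8.40% to 21.5%), in 0.367% (0.0758 to 1.07) of other immune cells and in 0.336% (0.168 to 0.600) of tumor cells. With each cell thinned to 500 UMIs the shares were 9.0%, 0.131% and 0.0284%. For Cd4 the same shares were 6.61% in T cells, 0.122% in other immune cells and 0.153% in tumor cells, and after thinning 3.48%, 0.0206% and 0.0196%. In tumor cells Treated 1 stood out with 7 Cd8a UMIs, against 0 in each of the other 3 libraries. Among other immune cells, 2 of the 11 dendritic-gated cells of Treated 2 had a Cd8a or Cd8b1 UMI.

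**Figure D1:**
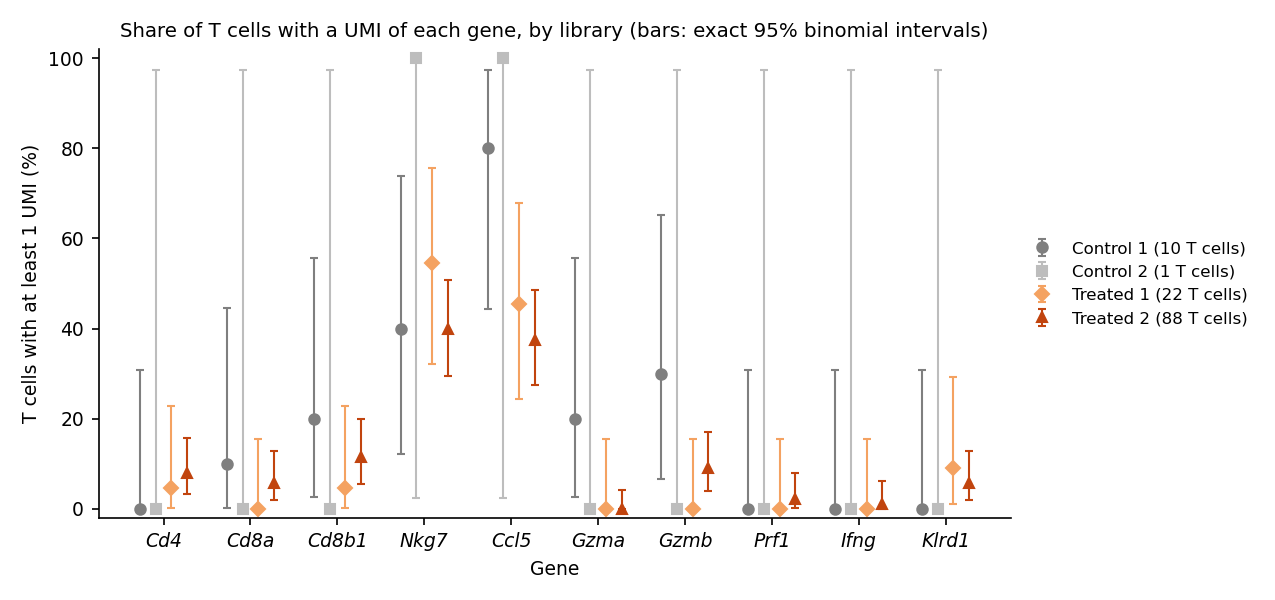
Percent of T cells with at least 1 UMI (y axis) for each of the 10 genes (x axis) in the 4 libraries; points are single libraries and bars are exact 95% binomial intervals, which span nearly the whole axis for the 1 T cell of Control 2. Ccl5 and Nkg7 have the highest share in each library, at 37.5% to 100% and 39.8% to 100%, though in Control 1 Nkg7 (4 of 10 cells) and Gzmb (3 of 10) differ by 1 cell, and Gzma is at 0 in both treated libraries.

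Ccl5 dominated the cytotoxic genes in T cells. It gave 68, 13, 98 and 658 UMIs in the T cells of the 4 libraries, that is 9521, 13934, 4747 and 6574 CPM of T cell UMIs. Both controls were thus above both treated libraries in level, although the Control 2 value comes from 1 cell. It was found in 80.0%, 100%, 45.5% and 37.5% of T cells. Nkg7 gave 10, 4, 28 and 138 UMIs, or 1400.2, 4287, 1356 and 1379 CPM, so that 3 of the 4 libraries lay close together and the lone cell of Control 2 lay above them. It was found in 40.0%, 100%, 54.5% and 39.8% of T cells.

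Granule proteases and perforin were scarce. Gzmb gave 5, 0, 0 and 13 UMIs in T cells, in 3 of 10 cells of Control 1 and 8 of 88 cells of Treated 2. Gzma gave 2, 0, 0 and 0 UMIs. In Treated 2, 0 of 88 T cells allows a share of cells with a UMI of up to 3.41%, and in Treated 1, 0 of 22 allows up to 13.6%. At these depths a cell without a UMI may still express the gene. Prf1 gave 2 UMIs and Ifng 2 UMIs, all in Treated 2, the latter in a single cell. Klrd1 gave 0, 0, 2 and 7 UMIs. Counts this low cannot separate the groups.

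The sum of Nkg7, Ccl5, Gzma, Gzmb, Prf1, Ifng and Klrd1, called the cytotoxic load, was 85, 17, 128 and 820 UMIs in T cells. Ccl5 made 79.7% and Nkg7 17.1% of its 1050 UMIs, so the load is in effect a measure of Ccl5. As CPM of T cell UMIs it was 11901, 18221, 6200.3 and 8192. The controls did not overlap with the treated libraries, with means of 15061 ± 4468 and 7196 ± 1408 CPM (SD, n = 2 each, exact permutation p = 0.333, adjusted p = 0.667). Without Control 2 the difference shrank from -7865 to -4705 CPM, and with a minimum of 500 genes per cell it was -3266 CPM (exact permutation p = 1). Without shared barcodes the load was 10672, 18221, 6159 and 8280.0 CPM.

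Inside T cells, neither gene that could be tested passed. Of the 10 genes, 8 fell to the filter on low counts, and Ccl5 and Nkg7 were 0 of 2 called by edgeR's quasi-likelihood test, where 2.25% of 178 genes were called. The log2 fold change (SP11 over control) was -0.50 (SE 0.26, adjusted p = 0.350) for Ccl5 and -0.04 (SE 0.42, adjusted p = 0.989) for Nkg7. Both changed sign under some alternatives, Ccl5 when Control 1 was left out (0.24) and Nkg7 when Control 2 was (0.39). The 4 genes called were Hbb-bs, Hbb-bt and Hba-a1, hemoglobin genes, which were higher with SP11, and Thy1, a surface protein of T cells, which was lower, with 1260.2, 1072, 145 and 130 CPM from 9, 1, 3 and 13 UMIs. They are named because so few were called. DESeq2 called 5 genes higher and none lower, so the call of Thy1 was lost.

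The T cells of a library differed widely among themselves. Ccl5 and Nkg7 were both found in 4, 1, 8 and 28 T cells, and both missing in 2, 0, 8 and 48. In Treated 2, the 8 T cells with the most Ccl5 held 48.5% of it, and the highest count was 52. Where Ccl5 was found in Treated 2, its median was 18.0 UMIs. The median UMIs of Treated 2 cells with either gene (901) and with neither (857.5) were close.

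**Figure D2:**
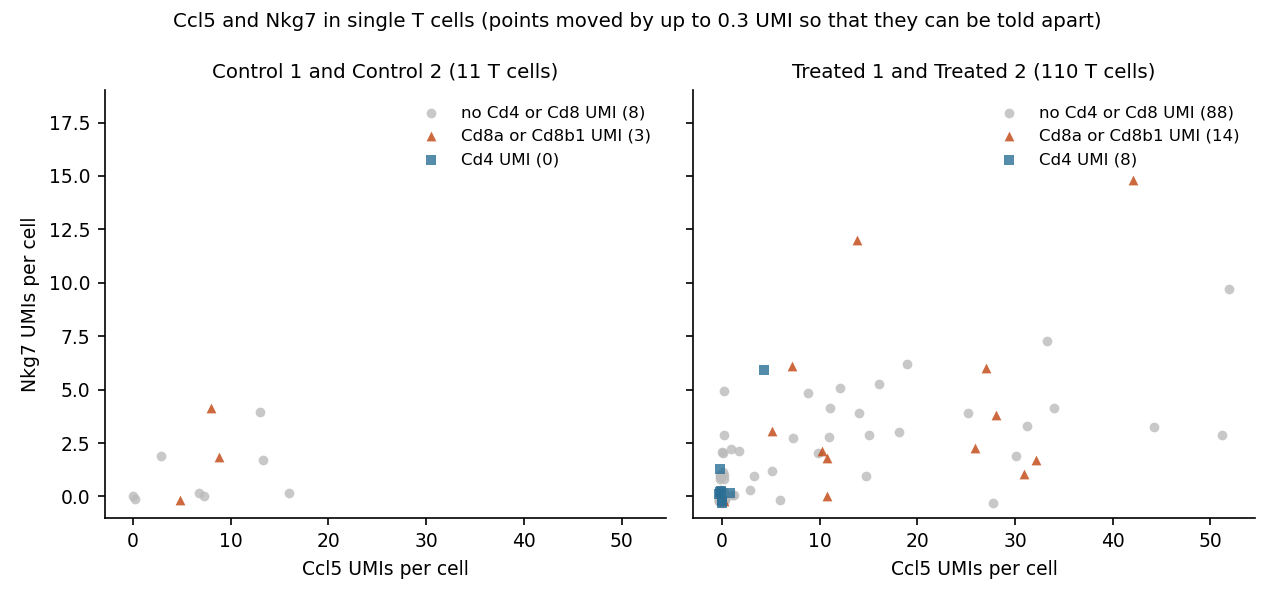
Each point is a T cell, with its Ccl5 UMIs (x axis) and Nkg7 UMIs (y axis); the left panel holds the 11 T cells of both controls and the right panel the 110 of both treated libraries, and color marks cells with a Cd8a or Cd8b1 UMI, with a Cd4 UMI, or with neither. Points were moved by up to 0.3 UMI. Of the 8 Cd4 cells 2 have a Ccl5 UMI, against 15 of the 17 Cd8 cells, which spread along both axes.

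In Treated 2, T cells with a Cd8 UMI carried more of the load than those with a Cd4 UMI. There, the 13 Cd8 T cells carried 233 Ccl5 and 55 Nkg7 UMIs, the 7 Cd4 T cells carried 5 and 7, and the 68 cells with neither carried 420 and 76. The load was 18409 CPM in Cd8 cells, 1354 in Cd4 cells and 6838 in cells with neither. Ccl5 was found in 11 of 13 Cd8 cells and in 2 of 7 Cd4 cells. In Control 1 the 3 Cd8 cells had a load of 16121 CPM and the 7 with neither 10277. In Treated 1 the Cd8 cell had 11 Ccl5 UMIs and the Cd4 cell had none. Cells of 1 tumor are not replicates, so these values are given without a test. They rest mainly on Treated 2.

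Treated 2 T cells were also divided, after their values were seen, into 40 with a Ccl5 or Nkg7 UMI and 48 without, with 47773 and 52324 UMIs. All 13 Gzmb UMIs lay in the former, as did all 7 Klrd1 UMIs and all 8 UMIs of Klrc1, the NKG2A chain that pairs with Klrd1. Prf1 (1 and 1), Ifng (0 and 2) and the granzyme Gzmk (2 and 3) did not follow. Cd8b1 gave 10 UMIs in the former and 2 in the latter, Ctsw, a cathepsin of cytotoxic cells, 19 and 2, and Cd69, an early activation marker, 7 and 0. Cxcr6, a chemokine receptor of tissue T cells, gave 15 and 4. The cells without Ccl5 and Nkg7 held more of Tnfrsf4 (0 and 12) and Tnfrsf18 (1 and 12), costimulatory receptors that are high on regulatory T cells, and of Il2ra (1 and 8), the interleukin 2 receptor alpha chain. Tcf7 (3 and 15) and Klf2 (19 and 42), factors of naive and memory cells, lay on the same side, while Cd4 was even at 3 and 4. Other genes of the Cd4 helper and regulatory list did not follow, since Ikzf2 gave 12 and 4, Icos 8 and 5 and Ctla4 8 and 8. Foxp3, the defining factor of regulatory T cells, was at 0 in both.

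Outside the T cells, the cytotoxic genes were found in a few other immune cells. These cells numbered 37, 18, 412 and 350, and were given by at least 2 UMIs of an NK, B cell, myeloid, neutrophil or dendritic list. Ccl5 gave 1, 0, 17 and 61 UMIs there, or 16.7, 0, 37.3 and 93.1 CPM, and Nkg7 gave 0, 0, 2 and 23. No gene of the 10 passed the filter for a test of SP11 against control in these cells, where 10.5% of 3628 genes were called. Of the 12 gene lists, the 14 effector cytokines and chemokines had 4 tested genes, of which Ccl3, Ccl4 and Tnf were lower with SP11 (log2 fold changes -1.59, -1.91 and -1.46) and Ltb was higher (4.13). The make-up of these cells differed between the groups, since B-gated cells numbered 1, 0, 152 and 143 of them, and the part of this in the 4 differences was not tested.

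In the treated libraries Gzma lay outside the T cells, which held 0 of 40 UMIs. In Control 1 T cells held 2 of 2 Gzma UMIs, and Control 2 had none. Of its 42 UMIs in kept cells, 30 were in other immune cells, 2 in T cells, 4 in tumor cells and 6 in unassigned cells. In Treated 2, 28 of the 29 UMIs in other immune cells came from 2 of the 3 cells gated as NK, with 25 and 3 UMIs. The former also had 8 Nkg7, 16 Ccl5, 3 Prf1, 1 Gzmb and 1 Klrd1 UMI, with Ncr1, an activating NK receptor, and Klri2. The latter had 9 Nkg7 and 5 Klrd1 UMIs and Ncr1. The third had 5 Ccl5 and 1 Nkg7 UMI. No barcode was gated as NK in the controls, and the 1 in Treated 1 had none of the 10 genes and only 2 Klra UMIs. The Klra genes are near copies of each other, and tumor cells held them too, so that cell is weakly placed. The 3 cells of Treated 2 are too few for a level.

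T cells stood far above the other immune cells of the same library in Ccl5 and Nkg7 when those cells were summed as 1 class. The 3 NK-gated cells of Treated 2 differed from that class. Their Nkg7 was 4919 CPM against 1379 in T cells of that library, and their Ccl5 5739 against 6574. Their cytotoxic load was 21044 CPM against 8192. These 3 cells are too few for a level, and T cells were not tested against them. With the library as a block, 2 of 2 tested genes were higher in T cells by edgeR's quasi-likelihood test, where 3.63% of 633 genes were called higher. Neither passed the filter on low counts among other immune cells alone. Both thus entered this test through the T cells, where they are high. Nothing is read from the count or from the adjusted p-values. The log2 difference was 6.77 (SE 0.32, adjusted p = 2.67e-85) for Ccl5 and 6.04 (SE 0.43, adjusted p = 8.02e-52) for Nkg7. Among the genes of the lists, Ltb, a lymphotoxin subunit, and Cd2, an adhesion receptor, were also higher in T cells (1.79 and 1.15), while Lamp1, a lysosomal membrane protein (-2.41), Srgn, the proteoglycan core of granules (-1.31), and Zeb2, a factor of effector and myeloid cells (-2.74), were lower. Over the 18 granzyme and cytolytic genes, 3 were tested, 1 was higher and 2 were lower, with a median of -1.3 beside -0.14 over all tested genes. Against tumor cells, Ccl5 and Nkg7 were again 2 of 2 higher, where 6.43% of 9885 genes were called higher, by 9.04 (SE 0.49, adjusted p = 1.25e-41) and 10.11 (SE 0.52, adjusted p = 3.65e-56) on the log2 scale. Nkg7 did not pass the filter in tumor cells alone, so here too the count was largely set by the filter. With at least 500 genes required per cell, neither gene passed the filter for the test against other immune cells, and only Ccl5 did against tumor cells.

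**Figure D3:**
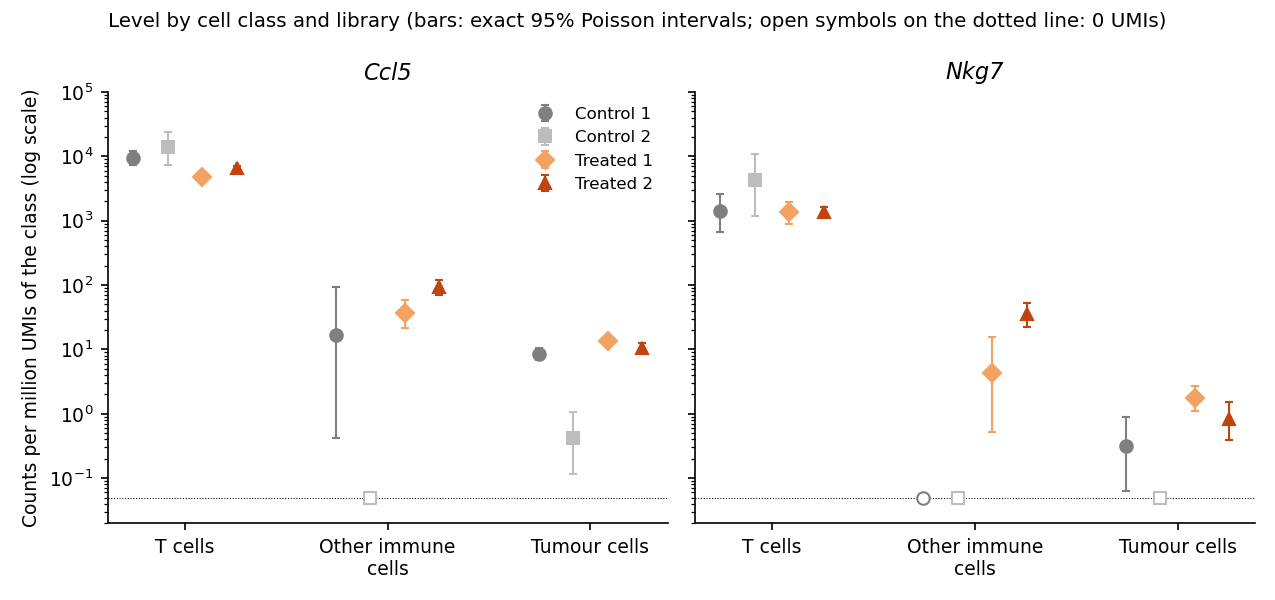
Ccl5 (left) and Nkg7 (right) in CPM of each class (y axis, log scale) in T cells, other immune cells and tumor cells (x axis); each symbol is a library, bars are exact 95% Poisson intervals, and open symbols on the dotted line mark 0 UMIs. In each library T cells lie above both other classes, by factors that are read on the log scale.

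Tumor cells held the genes at a low level. Ccl5 gave 83, 4, 167 and 128 UMIs in tumor cells of the 4 libraries, or 8.60, 0.420, 13.5 and 10.5 CPM. Control 2 was far below the rest. Nkg7 gave 3, 0, 22 and 10. Of the 10 genes, Ccl5 alone could be tested for SP11 against control, and 0 of 1 was called where 2.20% of 11613 genes were (log2 fold change 1.28, SE 0.51, adjusted p = 0.231). The size and the call depended on the libraries used. The log2 fold change was 4.70 without Control 1, 1.03 without Treated 1 and 1.48 without Treated 2, each called, and 0.34 without Control 2 (adjusted p = 0.578), not called. In these fits 1 group has a single library, which is assumed to vary like the other group, so their calls are weak evidence. Over 11 alternatives the adjusted p ran from 1.16e-25 to 0.987. A fit with the replicate number as a block also called Ccl5 (1.43).

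Much of the Ccl5 and Nkg7 in tumor cells lay in few barcodes. When tumor barcodes were divided, after the values were seen, by a UMI of the 6 genes of the T cell rule, the 97 with one were 2.96% of 3275 and held 63.6% of the Ccl5 UMIs and 71.4% of the Nkg7 UMIs. Most tumor barcodes with any Ccl5 had no T cell transcript, since only 20 of the 122 did. The Ccl5 level was 170 CPM in them and 3.29 CPM in the other 3178. A single barcode held 69 Ccl5 UMIs. By library, the barcodes with a T cell transcript held 46 of 83, 0 of 4, 109 of 167 and 88 of 128 Ccl5 UMIs. The part of doublets in these values was not tested. Per 100 Ccl5 UMIs, T cells had 14.7, 30.8, 28.6 and 21.0 Nkg7 UMIs, and tumor cells had 3.61, 0, 13.2 and 7.81. The tumor value was the lower in Control 1, Treated 1 and Treated 2, from 3, 22 and 10 tumor Nkg7 UMIs. In Control 2 the tumor cells had only 4 Ccl5 UMIs, too few to compare.

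**Figure D4:**
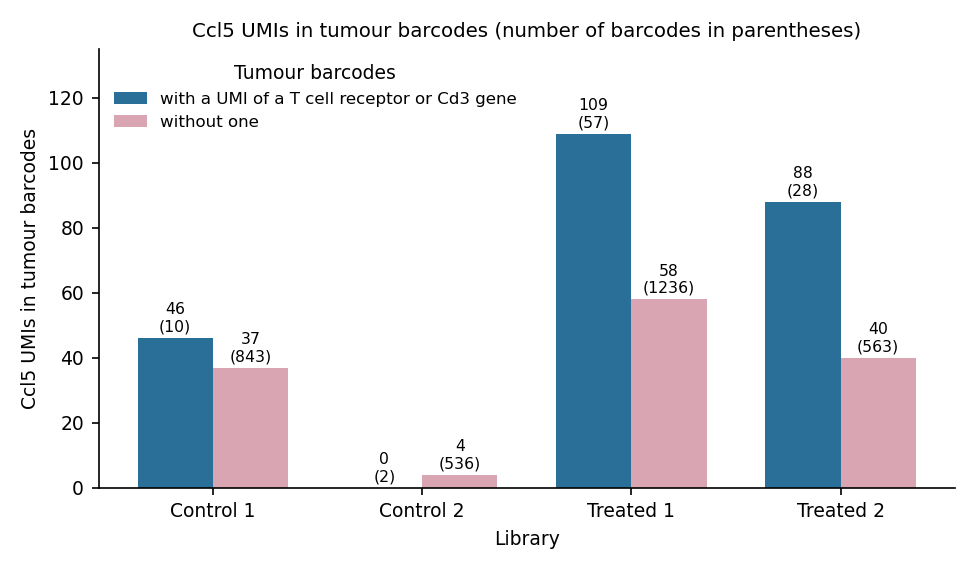
Ccl5 UMIs (y axis) in tumor barcodes with and without a UMI of the T cell receptor and Cd3 genes, in each library (x axis); numbers above the bars give the UMIs and, in parentheses, the barcodes. In Control 1, Treated 1 and Treated 2 the 10, 57 and 28 barcodes with such a UMI held more Ccl5 UMIs than the 843, 1236 and 563 without.

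Over all kept cells, Ccl5 and Nkg7 were higher with SP11. Ccl5 gave 172, 17, 293 and 910 UMIs, or 17.7, 1.78, 22.5 and 69.9 CPM, and Nkg7 gave 13, 5, 57 and 188 UMIs, or 1.33, 0.522, 4.38 and 14.4 CPM. Both controls were below both treated libraries for each gene, with Control 1 close to Treated 1 for Ccl5. Of the 2 genes tested, 2 were called higher by edgeR's quasi-likelihood test, where 9.11% of 12149 genes were called higher. The log2 fold change was 3.15 (SE 0.59, adjusted p = 0.000180) for Nkg7 and 2.06 (SE 0.50, adjusted p = 0.00817) for Ccl5. Leaving out a library moved Ccl5 between 1.11 (without Treated 2) and 4.53 (without Control 1), with 1.19 without Control 2 and 2.62 without Treated 1. Nkg7 moved between 2.13 (without Treated 2) and 3.98 (without Control 1), with 2.62 without Control 2 and 3.73 without Treated 1. DESeq2 kept the size for Ccl5 (2.04) but did not call it (adjusted p = 0.592, with a range of 6.75e-53 to 0.592 over 11 alternatives). In such a sum, the number of T cells, the RNA per T cell and the UMIs held by other classes cannot be told apart. Of the Ccl5 UMIs, tumor cells held 167 and T cells 98 in Treated 1, and 128 and 658 in Treated 2.

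The other 8 genes were too low to test over all cells. Cd8b1 gave 2, 0, 9 and 20 UMIs, Cd8a 1, 0, 9 and 6, and Cd4 0, 2, 2 and 10. Gzma gave 2, 0, 4 and 36, Gzmb 6, 0, 2 and 15, and Klrd1 1, 0, 2 and 22. Prf1 was found only in Treated 2, with 6 UMIs, and Ifng gave 1 and 2 UMIs in Treated 1 and Treated 2. Treated 2 was the highest library by CPM for each of these genes except Cd8a, for which it was Treated 1.

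The load over all kept cells was 19.9, 2.30, 27.6 and 90.5 CPM, with means of 11.1 ± 12.5 in controls and 59.1 ± 44.5 with SP11 (SD, n = 2 each, exact permutation p = 0.333, adjusted p = 0.667). Without Treated 2 the difference fell from 48.0 to 16.5 CPM. T cells, with 0.284% of all UMIs, held 59.9% of the 1754 load UMIs, tumor cells 24.4%, other immune cells 8.32% and unassigned cells 7.41%. By library T cells held 43.8%, 77.3%, 35.7% and 69.6%, a split that did not follow the groups (means 60.5% and 52.6%, exact permutation p = 0.667). Gzma, Gzmb, Prf1 and Ifng together gave 8, 0, 7 and 59 UMIs. T cells held 7 of 8 in Control 1, 0 of 7 in Treated 1, where tumor cells held 6, and 17 of 59 in Treated 2, where other immune cells held 33.

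**Figure D5:**
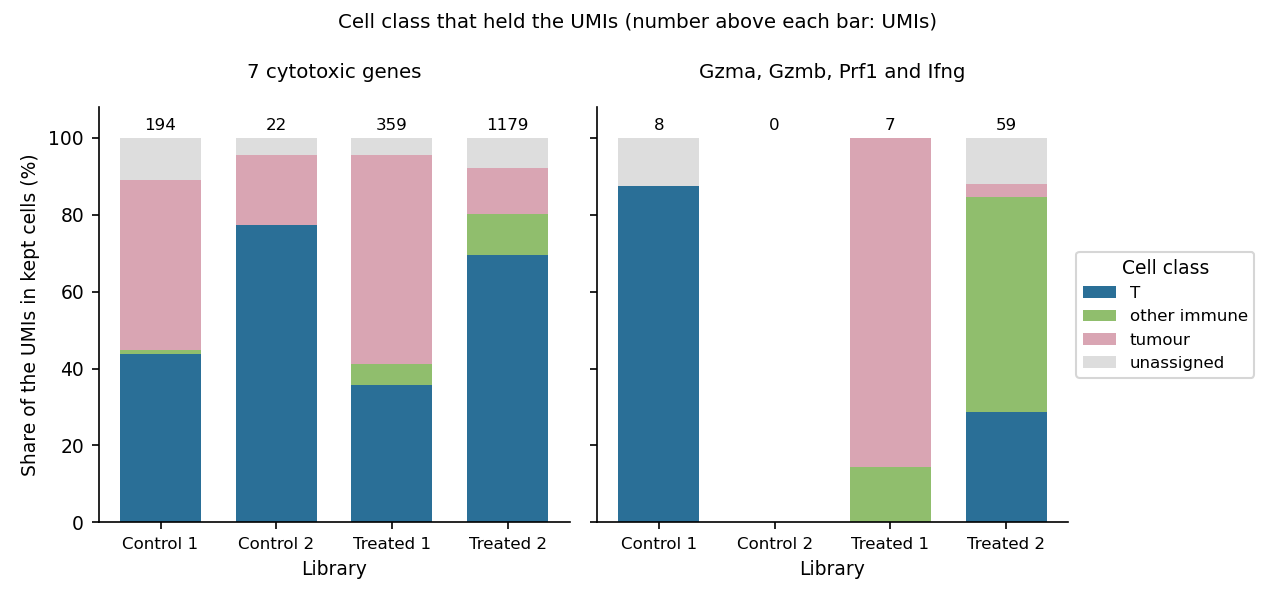
Stacked bars give the percent of UMIs (y axis) that each cell class held in each library (x axis), for the 7 cytotoxic genes (left) and for Gzma, Gzmb, Prf1 and Ifng (right), with the number of UMIs above each bar. T cells hold 35.7% to 77.3% on the left, while on the right the largest class differs between the 3 libraries that have UMIs.

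The wider lists of the pathway, 123 genes in 12 lists, were mostly higher with SP11 over all kept cells where they could be tested, beside the 9.11% of all genes called higher. Other immune cells made 4.04%, 3.18%, 22.5% and 32.1% of the kept cells, and several of these genes had more UMIs there than in T cells, such as Srgn (1711 against 90), Fcgr3 (239 against 1) and Cd244a (26 against 1). The part of this shift in the counts was not tested. The genes named from them were chosen after their values were seen. Of the 18 granzyme and cytolytic genes, 5 were tested and 4 were higher with SP11, namely Nkg7, Ctsw (4.21), Gzmm (1.88) and Srgn (1.66), with a median log2 fold change of 1.9 beside -0.01 over all genes tested. Of the 12 T cell receptor signalling genes, 8 were tested and 5 were higher, among them Cd2 (4.89) and Lck (1.86). Of the 8 naive and central memory genes, 7 were tested and 5 were higher, and of the 7 Cd8 lineage genes, 3 were tested and 2, Runx3 (3.04) and Themis (2.38), were higher. The remaining Cd8 lineage gene tested was Eomes, a T-box factor, at -0.05. Its UMIs came mostly from tumor cells, at 22.8, 23.1, 23.9 and 27.0 CPM. Ccr1, a chemokine receptor that binds Ccl5, was higher (1.61), and the receptors of interferon gamma were not called (Ifngr1 0.39, Ifngr2 -0.05). Of the 5 granzyme inhibitors, 4 were tested and Serpina3g (2.64) was higher. Of the 18 NK and killer lectin receptors, 6 were tested and 2, Cd244a (4.68) and Fcgr3 (1.00), were higher, while Klra4 (-0.38), Klra7 (-0.44), Klra8 (-0.37) and Klra9 (-0.33) were not called, and the median was -0.35. In the other lists 4 of 6 effector cytokines and chemokines, 3 of 6 Cd4 helper and regulatory genes, 5 of 6 activation genes and 4 of 7 effector transcription factors tested were higher, and no gamma delta T gene was tested. No list gene was called lower over all kept cells.

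Within T cells nearly all of these genes were too low to test. The lists had 4 tested genes there, Nkg7, Ccl5, Skap1 and Thy1, and Thy1 alone was called (-2.83). Of the 18 granzyme and cytolytic genes, 13 had a UMI in T cells, and of the 7 Cd8 lineage genes all 7 did. Tbx21, the T-box factor of effector cells, was among the 10 effector transcription factors that were all found. Of the 6 gamma delta genes, 5 were found, with 17 UMIs in all.

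Across the 12 sums of class and library, the genes outside the rule whose log2(CPM + 1) was most like the cytotoxic load were Sntb1 (Pearson's r = 0.96), Cxcr3 (0.95), Gimap7 (0.95), Stat5b (0.94) and Prkcq (0.94), among 11590 genes. For Cd8a plus Cd8b1 they were Lck (0.99), Lef1 (0.98), Gm2682 (0.97), Gstp3 (0.97) and Ctsw (0.96). The sums share libraries and differ widely in depth, down to the 933 UMIs of the Control 2 T cell, so these values describe the pattern only.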

How the data were processed

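Single-cell 3′ libraries of 2 control and 2 SP11 tumors were analysed. The deposited files hold UMI counts for each gene in each barcode, not normalized, made by the authors with Cell Ranger 7.1.0 per the file headers. The build in the submitters' processing notes is mm10, while the methods text names a human build. Introns, strand settings and doublet removal before deposit are not given in the sources used here. Libraries held 595 to 2277 barcodes and 9646197 to 13632163 UMIs.

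Barcodes with at least 200 genes and at most 10% mitochondrial UMIs were kept. Tumor cells had at least 3 Krt8 plus Krt18 UMIs, T cells followed the rule given above, and other immune cells had at least 2 UMIs of a marker list with hemoglobin at most 50%. Scrublet, in scanpy 1.11.5, marked 71 kept cells (1.61%) and no T cell, and these were kept. It was run on barcodes with at least 200 genes, since its automatic threshold failed on kept cells alone, a choice made after seeing both. UMIs were summed per library and class, because cells of a tumor are not replicates. Sums were tested with edgeR 4.0.16 in R 4.3.3 (quasi-likelihood test, TMM, filter on low counts, Benjamini-Hochberg over all genes tested, threshold 0.05), and class comparisons had the library as a block. The gene names used for the classes were left out of the class comparisons. CPM uses the UMIs of the class and is not scaled by length. Shares and loads were compared by two-sided exact permutation tests in scipy 1.17.1, whose smallest p is 0.333 for 2 against 2 libraries. Shares were also taken after thinning cells to 500 UMIs. Where a count is 0, the limit is that of 3 counts.

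The 10 genes were named in every class, with up to 3 called genes of each list by their change in T cells against other immune cells, and the 5 genes most like the load and Cd8 among those with at least 50 UMIs. The members and lists were chosen with earlier results of these data known. Alternatives were DESeq2 1.42.0, no filter on low counts, a replicate block, other cell filters and gates, and leaving out each library. Leaving out T cells with markers of another immune type, and leaving out shared barcodes, were chosen after seeing the data. On simulated counts with 200 changed genes, the test over all kept cells recovered 182 with 6 false calls, as did that over tumor cells. In other immune cells 114 of 200 were recovered, in T cells 12 of 17, for T against other immune cells 61 of 64, and for T against tumor cells only 11 of 200. Every simulated gene had the same fixed spread between libraries. These rates therefore need not hold for genes that vary more, such as Ccl5. The comparisons over all cells and over classes share libraries. The result of 1 gene of the lists is not reported here.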

Additional observations from a re-analysis of the deposited data

Results flagged for a closer look

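Barcodes that failed the cell filters entered no comparison, yet in the treated libraries they held cytotoxic UMIs while those of both controls held 0. In Treated 1 the cytotoxic load was 9.83 CPM, from 4 UMIs in 446 barcodes. In Treated 2 it was 4.94 CPM, from 3 UMIs in 392 barcodes. The controls had only 61 and 29 such barcodes, with 88140 and 71291 UMIs against 407103 and 607199. At that depth the 0 of the controls does not show a lower level than in the treated libraries. No barcode held more than 1 of these UMIs.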

How the results depend on the processing

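Over all kept cells, where 2 of the genes were called, no filter on low counts gave 4, DESeq2 gave 1, and leaving out a library gave 2 to 5. In tumor cells, with 0 called, the replicate block gave 1 (Ccl5, 1.43) and leaving out a library gave 0 to 2. Against other immune cells, with 2 called, no filter gave 6 and at least 500 genes per cell gave 0. Against tumor cells, with 2 called, no filter gave 10 and at least 500 genes gave 1. Inside T cells, Nkg7 changed sign with no filter (0.96), without Control 2 (0.39), without Treated 2 (0.00) and without T cells holding another immune list (0.24), ranging from -0.12 to 0.39 without 1 library, and Ccl5 with no filter (0.69), without Control 1 (0.24) and with at least 500 genes (0.13), ranging from -0.73 to 0.24 without 1 library. The T cell share of immune cells changed sign with a mitochondrial limit of 20% (0.138 points), at least 500 genes (5.63), no keratin UMI (2.73) and leaving out a library (-8.70 to 7.32). The share of cytotoxic UMIs held by T cells did so with at least 500 genes (3.14) and leaving out a library (-24.9 to 9.01). The permutation tests could not pass the threshold in any setting, so their p-values say nothing of stability. The causes of the changes were not tested.

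Same-numbered libraries correlated at 0.12 over 11627 genes in only 2 pairs, which does not establish a pairing. The replicate block left the genes called over all kept cells (2), in T cells (0) and in other immune cells (0) as they were. Higher and lower genes numbered 1107 and 198 by edgeR and 644 and 115 by DESeq2 over all kept cells, 237 and 143 against 64 and 74 in other immune cells, 197 and 58 against 84 and 44 in tumor cells, 23 and 118 against 12 and 82 for T against other immune cells, 3 and 1 against 5 and 0 in T cells, and 636 and 1381 against 521 and 111 for T against tumor cells. The T cell values are limited by cell number, with 1 T cell in Control 2 and 88 of 121 in Treated 2.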

Other observations

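Kept cells that met no class, numbering 16, 9, 104 and 62 by library (controls first), held 21, 1, 16 and 92 cytotoxic UMIs. In Control 1 all 21 lay in 1 cell, and in Treated 2 5 cells held 89 of the 92.

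Among other immune cells, Ccl5 was concentrated in single barcodes. A myeloid-gated cell of Treated 2 had 22 Ccl5 and 4 Nkg7 UMIs, a B-gated cell of Treated 1 had 13 and 1, and a dendritic-gated cell of Treated 2 had 12 Ccl5 UMIs and 1 Cd8a UMI.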
